A study of Mus musculus with 4 samples.

Results

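The genes described here are those that were well expressed in mouse bone marrow mesenchymal stem cells and whose 2 h response to TGF-b1 could therefore be compared between cells with and without Snail1. A gene was counted as well expressed when it measured at least 6 on the log2 scale on every array, which 7768 of the 22180 named genes (35%) did. The measure is the difference of the responses, that is, the response in Snail1-KO cells minus the response in Snail1-WT cells, where a response is the treated minus the untreated log2 value. A positive difference means that TGF-b1 moved the gene further up, or less far down, without Snail1.

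The 4 groups were Snail1-WT cells left untreated, Snail1-WT cells given TGF-b1 for 2 h, Snail1-KO cells left untreated and Snail1-KO cells given TGF-b1 for 2 h. Each group had 1 array. The sources used here do not give the dose of TGF-b1, how Snail1 was removed or how many animals the cells were taken from. Any other difference between the cultures of the 2 genotypes cannot be told apart from the loss of Snail1. A difference of 2 responses uses all 4 arrays and leaves 0 residual degrees of freedom, so no value below has a replicate check, an error or a test. The values describe these 4 arrays, and genes were ranked by the same values that are given for them.

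TGF-b1 binds a pair of receptor kinases that phosphorylate SMAD2 and SMAD3, which enter the nucleus with SMAD4 and within hours switch genes on and off. Among the genes switched on are inhibitors of the pathway itself, matricellular proteins and regulators of cell shape. Snail1, encoded by Snai1, is one of the direct targets, and its zinc fingers bind E-box motifs such as CAGGTG, where it recruits repressor complexes. It is best known for repressing epithelial genes, and in mesenchymal cells and fibroblasts it has been linked to their activation by TGF-b1.

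Snai1 itself measured 6.69 and 7.63 in untreated and treated Snail1-WT cells and 5.09 and 5.34 in Snail1-KO cells. It is therefore not among the well expressed genes. Its levels were lower on both Snail1-KO arrays, in the direction of the labels, and the difference of its responses was -0.69. Among the defining markers of mesenchymal stem cells, the PDGF receptor genes Pdgfra and Pdgfrb, Cd44, Eng, Vcam1 and Itgb1 measured at least 6 on all 4 arrays, and Thy1, Nt5e, Cd200, Alcam and Lepr did not, while Ly6a had no probe set of its own and was not used here. None of 8 endothelial and none of 8 epithelial markers reached 6 on any array, with highest values of 4.88 and 5.48. Of 11 haematopoietic markers only Cd34 and Cd68 passed on every array, and Ptprc ran from 3.15 to 3.78. In bulk RNA of this kind, fewer cells with a transcript and less transcript per cell cannot be told apart.

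Large differences between the responses were rare among well expressed genes. Only 2 of 7768 genes, the phosphodiesterase gene Pde7a and the zinc finger factor gene Egr1, differed at least 2-fold in the positive direction (0.0257% of the genes), and 0 differed 2-fold in the negative direction. At a threshold of 1.5-fold, which is 0.585 on the log2 scale, 42 genes (0.541%) were more positive and 12 (0.154%) more negative in Snail1-KO cells. The positive share of these calls was 77.8% with the values as deposited, 89.0% when each array was centred on its median and 66.7% after cyclic loess normalization. By comparison, 58 well expressed genes (0.747%) were at least 2-fold higher and 17 (0.219%) at least 2-fold lower after TGF-b1 with Snail1, and 79 (1.02%) and 18 (0.232%) without it. At 1.5-fold, 178 genes (2.29%) were higher and 95 (1.22%) lower with Snail1, and 262 (3.37%) and 78 (1.0%) without it.

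Over all well expressed genes the difference of the responses had a median of 0.04 and an SD of 0.18, and its middle 95% ran from -0.31 to 0.42. The SD was 0.22 in the lowest quintile of genes by level and 0.14 in the highest. For 167 genes a second probe set also measured at least 6 on every array. The brighter and second probe sets disagreed on the difference by a median of 0.13, and the SD of the disagreement was 0.21. Of these 167 genes 0 were past 1.5-fold, so the comparison does not cover the genes past that threshold. Among the 14412 genes below 6 on 1 or more arrays, 4.64% were more positive and 6.15% more negative at 1.5-fold, and 0.604% and 0.749% at 2-fold. Differences past 1.5-fold were thus more frequent among weakly expressed genes, in both directions. The 42 positive genes included 38 protein-coding genes and were spread over all levels, with 6 in the highest quintile. None of the 12 negative genes lay in either of the highest 2 quintiles, and 5 lay in the lowest.

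**Figure D1:**
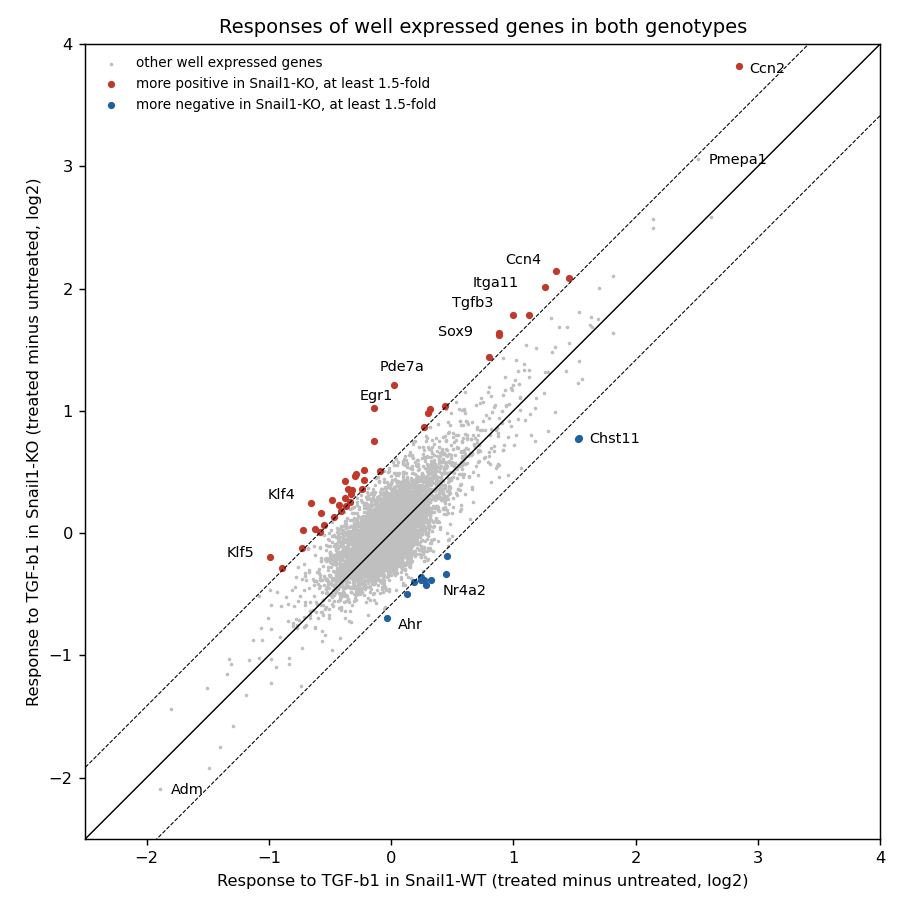
The response to TGF-b1 in Snail1-WT cells (x axis, treated minus untreated, log2) is plotted against that in Snail1-KO cells (y axis, log2) for 7768 well expressed genes, with 1 array per group. The solid line marks equal responses and the dashed lines a 1.5-fold difference. The 42 genes above the upper dashed line include Ccn2, Ccn4, Itga11 and Tgfb3 at the upper right, which were higher after TGF-b1 in both genotypes, and Klf4 and Klf5 at the left, which were lower after TGF-b1 in Snail1-WT cells. The 12 genes below the lower line include Chst11, with responses of 1.53 and 0.78.

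The positive genes held different patterns. In 25 of the 42, the Snail1-WT response was below 0 and the Snail1-KO response above 0. Another 14 were higher after TGF-b1 in both genotypes and 3 were lower in both. Over all well expressed genes the signs were opposite in 26.7%. A choice by the difference favours opposite signs, so nothing is read from these counts of signs. Only 9 genes had both responses past 1.5-fold, 7 had only the Snail1-KO response past it, 6 only the Snail1-WT response, and in 20 neither response reached 1.5-fold by itself. In untreated cells 34 of the 42 were lower in Snail1-KO than in Snail1-WT cells, and with TGF-b1 33 were higher in Snail1-KO cells. The untreated genotype difference enters the difference of the responses with a negative sign and the treated one with a positive sign, so a choice of large positive values favours both, and nothing is read from these counts.

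Members of the CCN family of matricellular proteins were among the positive genes. Ccn2, encoding connective tissue growth factor, measured 7.88 untreated and 10.72 treated in Snail1-WT cells and 6.82 and 10.64 in Snail1-KO cells. Its level was thus lower in untreated Snail1-KO cells, while the treated levels lay within 0.08 of each other. The responses were 2.84 and 3.82, a difference of 0.98 just below the 2-fold threshold. A second probe set of Ccn2, which measured between 4.14 and 5.27 and so near background, gave the opposite sign at -0.71, and the mean of both probe sets gave 0.13. The size and sign of the difference for Ccn2 therefore depend on the probe set.

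Ccn4, a WNT-inducible member of the same family, measured 9.10 and 10.44 in Snail1-WT cells and 8.04 and 10.19 in Snail1-KO cells. Here too the untreated array of Snail1-KO cells was the lowest and the treated arrays were close, with responses of 1.35 and 2.14. Ccn1, an integrin-binding relative, measured 11.44 and 12.24 in Snail1-WT cells and 10.51 and 11.95 in Snail1-KO cells, a difference of 0.64. All 3 genes shared the order of the arrays, with untreated Snail1-KO lowest and treated Snail1-WT highest.

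Tgfb3, which encodes a TGF-b ligand, measured 8.30 and 9.30 in Snail1-WT cells and 7.79 and 9.58 in Snail1-KO cells. Itga11, the collagen-binding integrin subunit of fibroblasts, measured 6.93 and 8.19 against 6.31 and 8.33. In both genes the Snail1-KO arrays held the lowest untreated and the highest treated value. Their responses were 1.0 and 1.79 for Tgfb3 and 1.26 and 2.01 for Itga11, with differences of 0.79 and 0.76.

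Several regulators of transcription were among the positive genes. Egr1, an immediate early factor downstream of growth factor and stress signals, measured 8.75 and 8.60 in Snail1-WT cells and 7.03 and 8.06 in Snail1-KO cells. The Snail1-KO untreated array stood lowest, and the response was -0.14 with and 1.03 without Snail1, a difference of 1.17 or 2.25-fold. Sox9, the cartilage and tendon progenitor regulator, measured 10.01 and 10.90 in Snail1-WT cells and 9.65 and 11.29 in Snail1-KO cells. It was higher after TGF-b1 in both genotypes, by 0.88 and 1.64.

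The Kruppel-like factors Klf4 and Klf5 moved the other way in Snail1-WT cells. Klf4, a regulator of quiescence and of smooth muscle and epithelial gene expression, measured 8.24 and 7.58 in Snail1-WT cells and 8.54 and 8.78 in Snail1-KO cells. It was lower after TGF-b1 by 0.66 on the log2 scale with Snail1 (response -0.66) and higher by 0.25 without it, so that the treated arrays differed by 1.2. Klf5, a growth-associated relative, measured 7.77 and 6.78 against 6.34 and 6.15. Untreated Snail1-KO cells already lay below both Snail1-WT values for Klf5, and the Snail1-KO response was -0.19 against -0.99. For Klf4 the genotypes moved apart with TGF-b1 and for Klf5 they moved closer, although both differences were positive (0.90 and 0.79). Trerf1, a zinc finger cofactor gene, measured 7.28 and 6.56 in Snail1-WT cells and 6.90 and 6.93 in Snail1-KO cells.

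The other genes among the 15 largest positive differences had varied roles. Pde7a, which degrades cyclic AMP, had the largest difference of all well expressed genes at 1.18, or 2.27-fold. It measured 6.86 and 6.88 in Snail1-WT cells and 6.25 and 7.46 in Snail1-KO cells, so the Snail1-KO arrays held both the lowest and the highest value. A dimmer probe set, between 4.35 and 4.93, gave responses of -0.07 and 0.59 and a difference of 0.66, of the same sign. Ptgir, the prostacyclin receptor gene, measured 6.89 and 6.59 against 6.85 and 7.31. The untreated values were almost equal and the treated values 0.72 apart.

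Daam1, a formin that links WNT signals to actin, measured 6.16 and 6.02 in Snail1-WT cells and 6.05 and 6.80 in Snail1-KO cells. Only the treated Snail1-KO array stood apart, with a response of 0.75 against -0.14. Dapk1, a death-associated protein kinase, measured 8.91 and 8.53 against 7.02 and 7.45. Both Snail1-KO values lay below both Snail1-WT values, with genotype differences of -1.89 untreated and -1.08 treated. The ribosomal protein genes Mrpl23 (mitochondrial) and Rpl37 (cytosolic) had differences of 0.76 and 0.74 at levels between 6.0 and 6.52, close to the filter. Cytosolic ribosomal protein genes such as Rpl37 have many near-identical pseudogene copies, so their array values are uncertain.

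**Figure D2:**
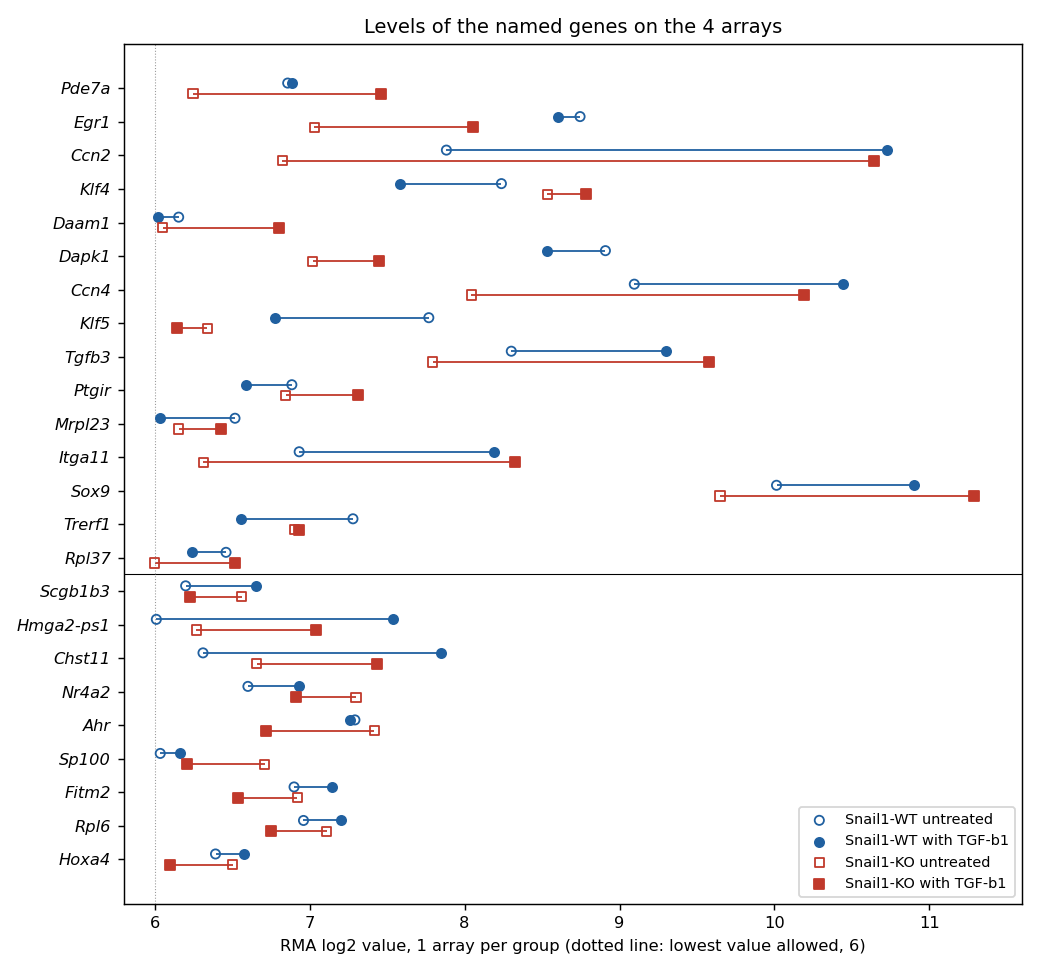
RMA log2 values (x axis) are shown for the 15 largest positive differences (above the line) and 9 of the 12 negative ones (below it), with 1 array per group. Open symbols are untreated and filled symbols treated cells, circles Snail1-WT and squares Snail1-KO. Ccn2 runs from 6.82 to 10.64 in Snail1-KO and from 7.88 to 10.72 in Snail1-WT cells, while all negative genes lie below 8.

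Of the 12 genes with a more negative response in Snail1-KO cells, 9 were higher after TGF-b1 in Snail1-WT cells and lower in Snail1-KO cells. The choice by the difference favours this pattern, and 26.7% of all well expressed genes had opposite signs, so nothing is read from the count. Chst11, a sulfotransferase that modifies chondroitin sulfate chains of proteoglycans, was the clearest induced gene among them. It measured 6.31 and 7.85 in Snail1-WT cells and 6.66 and 7.44 in Snail1-KO cells, and its response was 1.53 with and 0.78 without Snail1. The Snail1-WT arrays held both its lowest and its highest value. Hmga2-ps1, a pseudogene related to the chromatin protein gene Hmga2, had responses of 1.53 and 0.77, but Hmga2 itself went the other way with 0.26 and 0.70. Whether the probe set of the pseudogene also captures Hmga2 transcripts was not tested.

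Nr4a2, an orphan nuclear receptor of the immediate early class, measured 6.60 and 6.93 in Snail1-WT cells and 7.30 and 6.91 in Snail1-KO cells. The treated arrays were within 0.02 of each other and the untreated Snail1-KO array was the highest. Ahr, the aryl hydrocarbon receptor, measured 7.29 and 7.26 against 7.42 and 6.72. The treated Snail1-KO array alone stood low, with a response of -0.70 against -0.03. Fitm2, a lipid droplet gene, measured 6.90 and 7.14 against 6.92 and 6.54, a pattern similar to that of Ahr, with nearly equal untreated arrays.

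The nuclear body gene Sp100, which is induced by interferon, measured 6.04 and 6.17 in Snail1-WT cells and 6.71 and 6.21 in Snail1-KO cells. Only its untreated Snail1-KO value stood high. Its 3 dimmer probe sets gave differences of -0.21, 0.14 and -0.33 beside -0.63 for the brightest. Scgb1b3, Rpl6 and the homeobox gene Hoxa4 had differences of -0.79, -0.60 and -0.59 at levels between 6.10 and 7.20. Rpl6, like Rpl37, has many near-identical copies, so its values are uncertain. The mean over both probe sets of Scgb1b3 was -0.55, short of 1.5-fold.

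**Figure D3:**
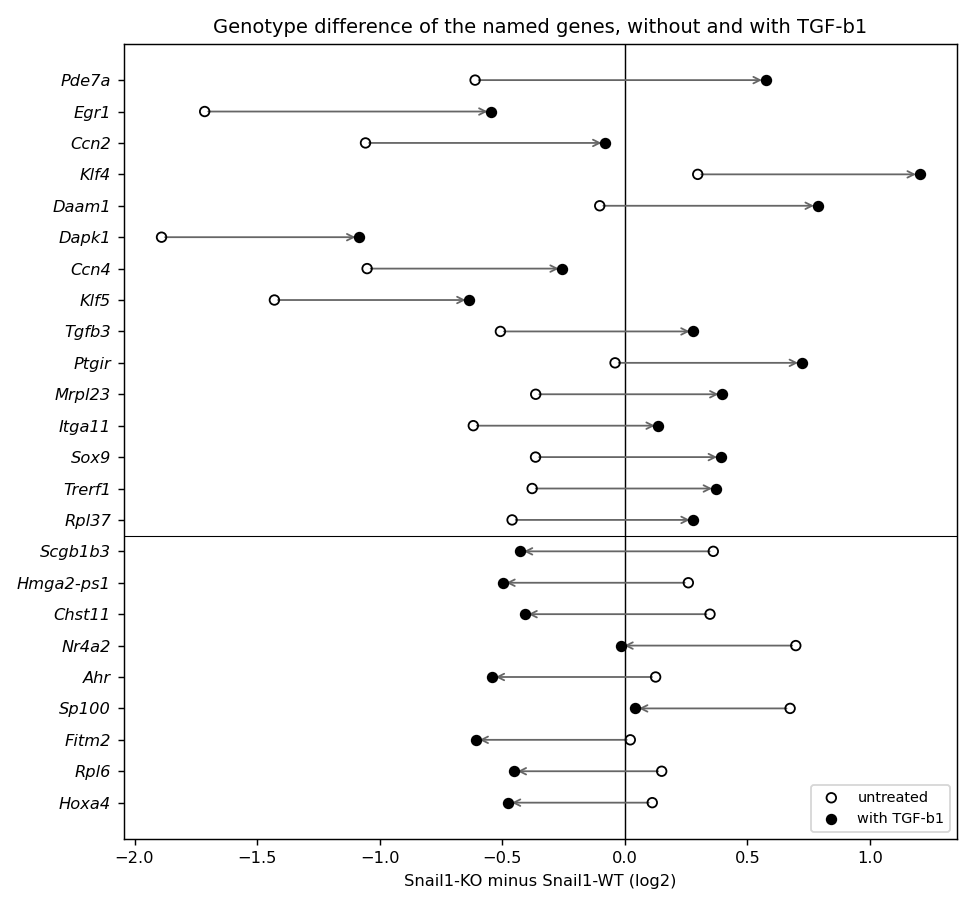
Snail1-KO minus Snail1-WT (x axis, log2) is shown without TGF-b1 (open) and with it (filled) for the same 24 genes, and the arrow between them is the difference of the responses. For Egr1, Ccn2, Ccn4, Dapk1 and Klf5 the genotypes were far apart without TGF-b1 and closer with it, whereas for Klf4, Daam1, Ptgir, Ahr and Fitm2 they were farther apart with it.

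Near the 1.5-fold threshold the values of the genes were close, while near 2-fold they were spaced farther apart. Just outside 2-fold lay Ccn2 at 0.98 and Klf4 at 0.90 and, on the negative side, Scgb1b3 at -0.79 and Hmga2-ps1 at -0.76. At 1.5-fold, Rxrb at 0.586 and Gprc5b at 0.587 were just inside, and Pdxk at 0.585 and Hira at 0.573 just outside. On the negative side Rpl6 at -0.60 and Hoxa4 at -0.59 were just inside, with Zc3h6 at -0.57 and Ust at -0.53 just outside.

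The induced program as a whole was compared next. Genes were sorted by the mean of both responses, which weights the genotypes equally, so that the choice of genes favours neither sign of the difference where both genotypes are measured with like error. Of 63 well expressed genes with a mean response at least 2-fold higher, 47 (74.6%) had the larger response in Snail1-KO cells, where 58.7% of all well expressed genes had a difference above 0. Whether these shares differ was not tested. Their median response was 1.26 with Snail1 and 1.41 without it, and the median difference was 0.20. Of 143 genes that were 1.5- to 2-fold higher, 67.1% had the larger response in Snail1-KO cells, with a median difference of 0.10. Among the 16 genes at least 2-fold lower after TGF-b1, 8 had a difference above 0 and the median was 0.01. The 63 induced genes had a median genotype difference of -0.20 without and -0.07 with TGF-b1, and 41 of them were lower in untreated and 37 in treated Snail1-KO cells. Over all well expressed genes these medians were -0.01 and 0.02. Of the 7488 genes with a mean response within 1.5-fold, 3869 were lower in untreated and 3555 in treated Snail1-KO cells. Whether the induced genes differ from the others in this was not tested.

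Among these induced genes the SMAD antagonist gene Pmepa1 measured 7.69 and 10.20 in Snail1-WT cells and 7.18 and 10.25 in Snail1-KO cells. Gadd45b, a stress sensor that acts on MAP kinase signalling, measured 9.14 and 10.02 against 8.70 and 10.32. Rgs4, which shuts off G protein signals, measured 6.88 and 8.33 against 6.95 and 9.03. In all 3 the treated Snail1-KO array was the highest. Their differences were 0.56, 0.73 and 0.63.

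Other induced genes responded about equally. The hyaluronan synthase gene Has2 measured 7.97 and 10.58 in Snail1-WT cells and 7.08 and 9.66 in Snail1-KO cells, with a difference of -0.03. Its genotype gap was thus carried through the treatment. Fstl3, an activin-binding inhibitor, had responses of 1.64 and 1.69, and Unc5b, a netrin receptor gene, 1.62 and 1.70. The angiogenic factor gene Vegfa had the smaller response in Snail1-KO cells, at 1.23 against 1.53. Among the genes lower after TGF-b1, the vasoactive peptide gene Adm had responses of -1.89 and -2.09 and the WNT enhancer gene Rspo2 -1.80 and -1.44.

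**Figure D4:**
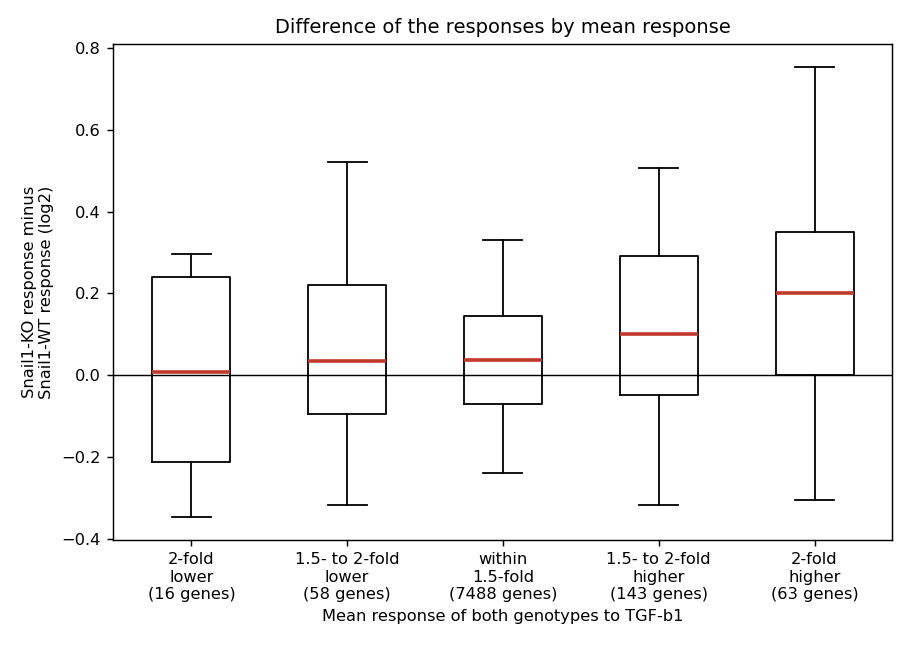
The difference of the responses (y axis, log2) is shown for well expressed genes grouped by the mean response of both genotypes (x axis). Boxes span the quartiles, red lines are medians and whiskers run from the 5th to the 95th percentile of genes. The median is 0.20 for the 63 genes at least 2-fold higher after TGF-b1 and 0.01 for the 16 at least 2-fold lower.

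Gene lists were then read in the same way, against a median of 0.04 and 58.7% above 0 over all well expressed genes. Of 22 measured TGF-b early targets, 15 were well expressed, and 13 of these had a difference above 0, with 2 past 1.5-fold (Ccn2 and Ccn1) and none in the other direction. Their median was 0.20. The exceptions included the cytokine gene Lif, with responses of 0.87 and 0.55. The count of 13 of 15 was the same after median centring and after cyclic loess, and it was 12 of 14 with the mean of probe sets. All these counts come from the same 4 arrays. The list was chosen with earlier results of these data known. Its members Ccn2, Ccn1 and Pmepa1 are among the 63 induced genes, so the list is no separate check on those. TGF-b ligands, receptors and SMADs, a list that shares Pmepa1 and others with it, had a median of 0.15 over 17 genes, 14 of them above 0. Thbs1, an activator of latent TGF-b, measured 11.16 and 11.50 in Snail1-WT and 10.41 and 11.17 in Snail1-KO cells, whereas Smad2 had responses of 0.11 and -0.30.

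Immediate early transcription factors had a median of 0.20 over 14 well expressed genes of 22 measured, with 10 above 0. Beside Egr1 the antiproliferative gene Btg2 had responses of -0.48 and 0.09 and the nuclear receptor gene Nr4a1 0.28 and 0.79. Nr4a1 and Nr4a2, which belong to the same family, thus differed in opposite directions (0.51 and -0.71). Feedback genes of MAP kinase signalling had a median of 0.08 over 11 genes and none past 1.5-fold. Of these, Errfi1, an inhibitor of the EGF receptor, measured 8.75 and 8.70 against 7.72 and 8.09.

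EMT transcription factors had a median of 0.21 over 7 genes, 5 of them above 0 and none past 1.5-fold. Snai2, the paralog of Snai1, measured 10.27 and 9.14 in Snail1-WT cells and 10.66 and 9.79 in Snail1-KO cells. It was lower after TGF-b1 in both genotypes, with responses of -1.13 and -0.88. The homeobox factor Prrx2 had responses of 0.23 and 0.53 and the bHLH factor Twist1 -0.76 and -0.55.

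Extracellular matrix genes had a median of 0.08 over 26 genes, with 21 above 0 and 1, Ccn4, past 1.5-fold. The adhesion-modulating gene Tnc measured 10.42 and 10.79 in Snail1-WT and 8.73 and 9.51 in Snail1-KO cells. Its genotype gap was larger than either response. Matrix proteases and their inhibitors had a median of 0.13 over 15 genes, with the protease inhibitor Timp3 at 0.32 and the aggrecanase gene Adamts1 at -0.35. Actin and contractile genes had a median of 0.07 over 22 genes. Itga11 alone passed 1.5-fold there, and Acta2, the actin of smooth muscle, had responses of 0.07 and 0.14, while Ankrd1, a target of mechanical signals, had responses of 0.04 and 0.47.

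Cytokines and chemokines, WNT, Notch, and BMP, activin and ID genes had medians between 0.02 and 0.07, with no gene past 1.5-fold in any of the 4 lists. Ccl2, the monocyte chemokine, differed by 0.37 and the neutrophil chemokine Cxcl5 by -0.32. The WNT receptor genes Fzd4 and Fzd7 differed by 0.47 and 0.41, but their relative Fzd2 by -0.21. Of the 10 well expressed WNT genes, 5 had a difference above 0. The BMP target Id3 differed by 0.39. Forkhead, Osr and limb patterning factors had a median of 0.10 over 15 genes, with Sox9 at 0.76, Runx1 at 0.44 and the repressor gene Runx1t1 at -0.44. Proliferation genes had a median of 0.04 over 15 genes and housekeeping genes -0.01 over 10, with Ywhaz the farthest from 0 among the latter at -0.11. The sign of the housekeeping median turned with the scaling, to 0.04 after median centring, and was -0.04 after cyclic loess. Of the 29 lists with a well expressed member, 20 held no gene past 1.5-fold, where 54 of all 7768 well expressed genes (0.695%) were past it.

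**Figure D5:**
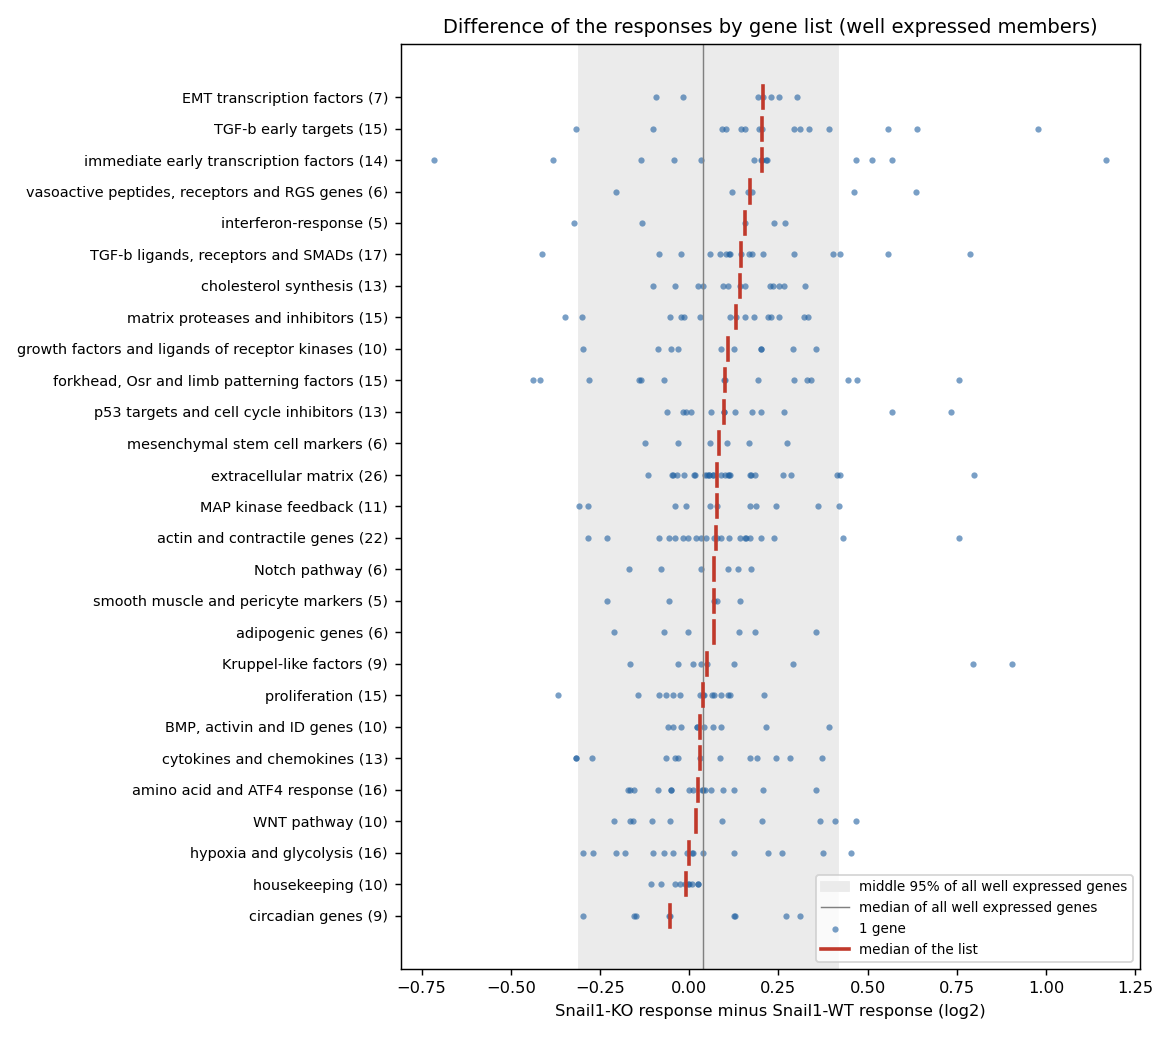
Each dot is a well expressed gene of a list, placed by the difference of the responses (x axis, log2), with lists of at least 5 such genes in rows and their numbers in parentheses. Red bars are list medians, the grey band is the middle 95% of all well expressed genes (-0.31 to 0.42) and the grey line their median. List medians run from -0.05 for circadian genes to 0.21 for EMT transcription factors. The band describes single genes and is no yardstick for a list median.

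The promoters of these genes were searched for the E-box CAGGTG that Snail1 binds, on both strands, in windows from 250 bases before to 50 after the start of each gene in RefSeq (GRCm38.p6). The motif was present in 20.2% of 32851 windows of that length. It was held by 7 of the 28 positive genes that have a window (25%), by 0 of 6 negative genes and by 17.8% of 6222 well expressed genes. The 7 included Daam1, Dapk1, Itga11 and Ptgir. Pde7a, Egr1, Ccn2, Ccn4, Klf5, Tgfb3, Sox9, Ahr, Scgb1b3 and Hmga2-ps1 had no window, so the shares leave these genes out. A match describes the letters and is no evidence of binding. The windows of Daam1 (chr12:71830818-71831117, + strand, 1 of 2 windows) and Dapk1 (chr13:60601961-60602260, + strand) are shown because they had the largest differences among the genes that hold the motif, which is in capitals.
Daam1: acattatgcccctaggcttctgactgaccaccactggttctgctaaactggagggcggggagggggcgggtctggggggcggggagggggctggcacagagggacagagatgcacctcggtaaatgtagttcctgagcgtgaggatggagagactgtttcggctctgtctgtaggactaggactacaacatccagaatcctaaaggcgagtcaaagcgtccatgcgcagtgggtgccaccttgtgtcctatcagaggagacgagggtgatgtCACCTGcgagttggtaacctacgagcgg
Dapk1: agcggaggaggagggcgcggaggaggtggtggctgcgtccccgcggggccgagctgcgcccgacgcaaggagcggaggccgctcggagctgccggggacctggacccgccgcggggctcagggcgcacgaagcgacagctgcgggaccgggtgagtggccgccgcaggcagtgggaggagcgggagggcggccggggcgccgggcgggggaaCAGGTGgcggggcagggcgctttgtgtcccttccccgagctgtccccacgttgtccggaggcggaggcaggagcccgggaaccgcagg
In Daam1 the motif begins 23 bases into the transcript and reads CACCTG, the reverse complement, and in Dapk1 it begins 38 bases before the start. Klf4 has a window without it. Another 2 motifs were searched in the same windows, also on both strands. The TEAD motif GGAATG was present in 2 of the 28 positive genes (7.14%), 1 of the 6 negative genes, 13.2% of well expressed genes and 14.7% of all windows. The AP-1 motif TGACTCA was present in 0 of 28 and 0 of 6, in 4.15% of well expressed genes and in 5.2% of all windows. None of these shares was tested.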

How the data were processed

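Total RNA was measured on 4 Affymetrix arrays, 1 per group, after biotin labelling with the WT PLUS kit, per the labels' protocols. Per the submitters' processing notes, which name RMA and R 3.1.1, the authors deposited log2 values. RMA equalises the distributions of the arrays, so a shift of most genes in one direction would be removed. No source used here gives the build or annotation. The number of arrays limits the precision.

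Groups came from the sample titles. Of 41345 probe sets, 23521 had 1 gene symbol in the platform annotation, 1814 had several and 16010 were unnamed here. For each of 22180 genes the brightest probe set by mean was taken, and a minimum of 6 on every array applied. By Entrez identifier, 21994 genes matched RefSeq. Genes were counted at differences of 1.5-fold and 2-fold with no test. The procedure was tested on simulated data with differences set past 2-fold, which checks the calculation only. It does not cover the reliability of the 1.5-fold or 2-fold calls on these arrays. Work used Python 3.11.15, pandas 2.3.3, matplotlib 3.10.9 and limma 3.58.1 (cyclic loess) in R 4.3.3.

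Named genes were the 15 largest differences in each direction of at least 1.5-fold (predicted, clone-named, small RNA and receptor segment symbols left out), those nearest the 2-fold thresholds and up to 4 members per list. Named outside that rule, after their values were seen, were the genes nearest 1.5-fold, Has2, Fstl3, Unc5b, Hmga2, Itgb1, the other cell markers and the genes of the closing section. The members and lists were chosen with earlier results of these data known. Promoter windows were searched for 3 motifs. Alternatives were other filters, the mean of probe sets, median centring and cyclic loess.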

Additional observations from a re-analysis of the deposited data

Results flagged for a closer look

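With 1 array per group, a gene can be marked for a closer look only where its responses to TGF-b1 had opposite signs in the 2 genotypes, and none of these differences was tested. Among the 24 named genes with the largest differences this held for 14. Over all 7768 well expressed genes the signs were opposite in 2075 (26.7%), and the 24 were chosen by the difference itself, which favours opposite signs, so nothing is read from the count. The responses were below 0 in Snail1-WT and above 0 in Snail1-KO cells for Egr1 (difference 1.17), Klf4 (0.90), Daam1 (0.89), Dapk1 (0.81), Ptgir (0.76), Mrpl23 (0.76), Trerf1 (0.75) and Rpl37 (0.74). They were above 0 in Snail1-WT and below 0 in Snail1-KO cells for Scgb1b3 (-0.79), Nr4a2 (-0.71), Sp100 (-0.63), Fitm2 (-0.63), Rpl6 (-0.60) and Hoxa4 (-0.59). Single responses were often small: that of Egr1 in Snail1-WT cells was -0.14 and that of Trerf1 in Snail1-KO cells 0.03.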

How the results depend on the processing

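The counts depended most on the filter. The 2 genes more positive by 2-fold became 89 with no filter and 1 at a minimum of 7 or when probe sets were averaged. The 0 genes more negative by 2-fold became 108 with no filter, 2 at a minimum of 5 and 1 with a mean of at least 6. At 1.5-fold, the 42 positive genes became 120 at a minimum of 5 and 17 at 7. They became 72 with a mean of at least 6 and 710 with no filter. The 12 negative genes became 64, 1, 25 and 898 under the same 4 filters. Median centring gave 65 positive and 8 negative genes, and cyclic loess 30 and 15. The mean of probe sets gave 39 and 10. With no filter the negative calls outnumbered the positive ones. Of 29 list medians, 8 turned sign with no filter, 3 at a minimum of 5, 1 with a mean of at least 6, 2 after median centring, 3 after cyclic loess and 0 with the mean of probe sets, and 3 of 28 did at a minimum of 7. The farthest moves were those of interferon-response genes from 0.16 to -0.13 with a mean of at least 6 and, with no filter, of the vasoactive list from 0.17 to -0.072 and bone formation genes from 0.16 to -0.0384. No named gene past 1.5-fold reversed with the mean of probe sets, median centring or cyclic loess, but with the mean of probe sets Ccn2 (0.13), Scgb1b3 (-0.55) and Sp100 (-0.26) no longer passed it, and after median centring Sp100, Fitm2, Rpl6 and Hoxa4 (-0.58 to -0.54) did not. Of the induced genes, 45 of 62, 48 of 62 and 47 of 61 had the larger response in Snail1-KO cells under those settings. The median difference over all well expressed genes was 0.04, 0.09 and 0.01 in the same order. Whether the induced genes differ from all genes was not tested. No paired analysis was possible because each group had 1 array.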

Other observations

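Of the 22 TGF-b early targets measured, 7 missed the filter because at least 1 array lay below 6. The difference of the responses was above 0 in 5 of them and below 0 in 2. With no filter the median over all 22180 genes was -0.0002. Of all genes below the filter, 4.64% were more positive and 6.15% more negative at 1.5-fold, so nothing is read from the count. The SMAD co-repressor gene Skil measured 5.65 and 8.27 in Snail1-WT and 5.51 and 8.82 in Snail1-KO cells, a difference of 0.70. Id2, an inhibitor of bHLH factors, measured 6.61 and 5.88 in Snail1-WT and 5.97 and 6.45 in Snail1-KO cells, a difference of 1.21. Its relative Id1 differed by 0.63, the inhibitory SMAD gene Smad7 by 0.28 and the Kruppel-like factor gene Klf10 by 0.02. The lipase inhibitor gene Angptl4 differed by -0.43 and the cytokine gene Il11 by -0.42. Outside that list, the surface glycoprotein gene Cd200 measured 4.02 and 3.95 in Snail1-WT cells and 4.37 and 5.85 in Snail1-KO cells, so that only the treated Snail1-KO array stood high, near the level where values are weak.

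Genes of cholesterol synthesis gave small differences of mostly 1 sign. Of 13 well expressed members, 11 had a difference above 0, with a median of 0.14 and none past 1.5-fold. Over all well expressed genes 58.7% were above 0 and the median was 0.04. Whether the list differs from them was not tested. The regulator Insig1 measured 9.79 and 9.73 in Snail1-WT and 9.97 and 10.23 in Snail1-KO cells, and the squalene epoxidase gene Sqle 9.02 and 8.93 against 9.38 and 9.56. In both genes the treated Snail1-KO array was the highest. The count was 12 of 13 after median centring and 11 of 13 after cyclic loess. The median over all well expressed genes also moved with the scaling, to 0.09 and 0.01.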
